A study of Mus musculus with 9 samples.

Results

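The genes described here encode 7 RNA-binding proteins of stress granules, the cytoplasmic bodies in which stalled messenger RNAs gather when translation initiation stops: *Tia1*, *Tial1*, *Caprin1*, *G3bp1*, *G3bp2*, *Fmr1* and *Pabpc1*. Every probe that is not a control and carries one of these 7 gene names was taken, which gave 15 probes of the 39429 on the array, and the array holds 31093 gene names in all. *Pabpc1* has 1 probe, *Tia1*, *Tial1*, *G3bp1* and *G3bp2* have 2 each, and *Caprin1* and *Fmr1* have 3 each. All 15 probes were well above background on all 9 arrays, so none was lost to the filter on dim probes, which 27991 probes with 21905 gene names passed. The way of reading them was chosen by measured signals: every probe is given, rather than the brightest of each gene, because the 3 probes of *Caprin1* had been seen to disagree on these arrays. The values of *Caprin1*, and those of *Tia1*, which had also been seen before, are therefore given as a description, with no test and no call.

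Total RNA of the hippocampus from 3 IF1-KO, 3 control (CRL) and 3 IF1-TG male mice of the C57BL/6J strain, aged 9 months, was hybridized with a single dye to Agilent mouse gene arrays, 1 mouse per array. IF1, the ATPase inhibitory factor 1, is a mitochondrial protein that binds and inhibits the ATP synthase. In IF1-KO mice exon 3 of the floxed IF1 gene was deleted by a Cre recombinase driven by the *Camk2a* promoter, which acts mostly in excitatory forebrain neurons, so the other cells of the hippocampus kept the gene. In IF1-TG mice, human IF1 under a tetracycline-responsive element was switched on by a transactivator under the same promoter. The sources used here do not state which of these transgenes the array's CRL mice carried.

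Stress granules form when phosphorylation of the alpha subunit of the initiation factor eIF2 blocks the loading of ribosomes, and untranslated messenger RNAs condense with their binding proteins. G3BP1 and G3BP2 form the core of that network, CAPRIN1 binds G3BP and promotes it, TIA1 and its relative TIAL1 bind uridine-rich sequences and add prion-like contacts, and PABPC1 arrives with the poly(A) tail. In neurons several of these proteins, FMRP (the product of *Fmr1*) and CAPRIN1 among them, also travel in RNA granules along dendrites and hold back translation near synapses, and loss of FMRP causes fragile X syndrome.

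Signals are log2 values of the processed intensity minus that of the array's 75th percentile. A difference counted as passing when the fold change was at least 1.5 and the unadjusted *P* value of limma was below 0.05. Adjusted values are Benjamini-Hochberg over all 27991 probes. *Atpif1*, the gene deleted in IF1-KO mice, had a signal of 5.20 and 5.53 on 2 arrays labelled IF1-KO, but of 6.43 on the array labelled IF1-KO replicate 1, within the 6.19 to 6.51 of the other genotypes. The mouse probe says nothing of the human transgene. Slide 1 carried no genotype but IF1-TG (its replicates 1 and 2). Slide 2 carried all genotypes, namely replicate 1 of IF1-KO, replicates 1 and 2 of CRL and replicate 3 of IF1-TG, and slide 3 the remaining IF1-KO mice and replicate 3 of CRL. The share of probes well above background was 66.7% to 69.7% on the IF1-TG arrays and 71.2% to 74.9% on the others. All 7 markers of excitatory hippocampal neurons were well above background on every array, with a summed linear signal of 36.1 to 43.3 in IF1-KO, 37.0 to 42.4 in CRL and 43.9 to 48.8 in IF1-TG. The 5 choroid plexus markers, also all above background, summed to 2.04 to 95.7, 2.99 to 118 and 4.84 to 179 in the same order, with the high values on IF1-KO replicate 3, CRL replicate 2 and IF1-TG replicate 1. CRL replicate 2 stood out too in its 5 endothelial and blood markers, with a sum of 165 against 18.5 to 47.2 elsewhere. The sum of 4 of the 5 microglia markers was 16.5 to 18.6 in IF1-KO, below the 19.2 to 20 of CRL and 19.7 to 21.1 of IF1-TG mice. Taken singly, 3 of the 5 were lower and 2 higher in IF1-KO than in CRL mice, with a median log2 difference of -0.03. Of 6 oligodendrocyte markers, 5 were lower and 1 higher in IF1-KO than in CRL mice, with a median of -0.27. Between IF1-TG and IF1-KO 4 of these 6 were higher and 2 lower, with a median of 0.26. All 6 striatal markers were above background throughout. Each had a lower mean in IF1-TG and in IF1-KO than in CRL mice, with a median log2 difference of -0.38 and -0.42. In each comparison 1 of the 6 was past the thresholds defined above, beside 4.31% and 1.02% of all genes by their brightest probe. The sums of the 6 overlapped (6.85 to 8.06 in IF1-KO, 7.75 to 12.7 in CRL and 6.70 to 12.4 in IF1-TG). The part of these markers in the values below was not tested.

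*Caprin1* showed the widest contrast among these genes, and its probes did not move together. The probe A_52_P127459 had a signal of -0.97, -1.01 and -1.24 in IF1-KO, -2.01, -1.64 and -0.88 in CRL, and -1.99, -1.94 and -2.52 in IF1-TG mice (replicates 1 to 3, as in all such lists here). Every IF1-TG array was below every IF1-KO array, while the CRL arrays were spread over both ranges: replicates 1 and 2 lay near the IF1-TG arrays and replicate 3 above all others. The difference between IF1-TG and IF1-KO was -1.08 ± 0.28 (log2, SE), or 0.474 times the IF1-KO signal. Between IF1-TG and CRL it was -0.64 ± 0.28, and between IF1-KO and CRL 0.43 ± 0.28. The last value was 0.75 without CRL replicate 3 and 0.18 without CRL replicate 1.

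The other 2 *Caprin1* probes showed no such pattern. A_55_P2070194 had a signal of 0.59, 0.69 and 0.86 in IF1-KO, 0.78, 0.53 and 0.92 in CRL, and 0.83, 1.31 and 0.71 in IF1-TG mice. A_55_P2116054 had -0.29, -0.18 and -0.27, then -0.30, -0.47 and -0.18, then -0.43, -0.23 and -0.18. The genotypes overlapped in both probes, and their differences between IF1-TG and IF1-KO were 0.23 ± 0.18 and -0.03 ± 0.12. The first fell to 0.06 without IF1-TG replicate 2. The log2 difference of A_52_P127459 was thus 1.31 and 1.05 units below those of its companions. Its Pearson correlation with them over the 9 arrays was -0.16 and 0.18, against 0.36 between the companions.

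**Figure D1:**
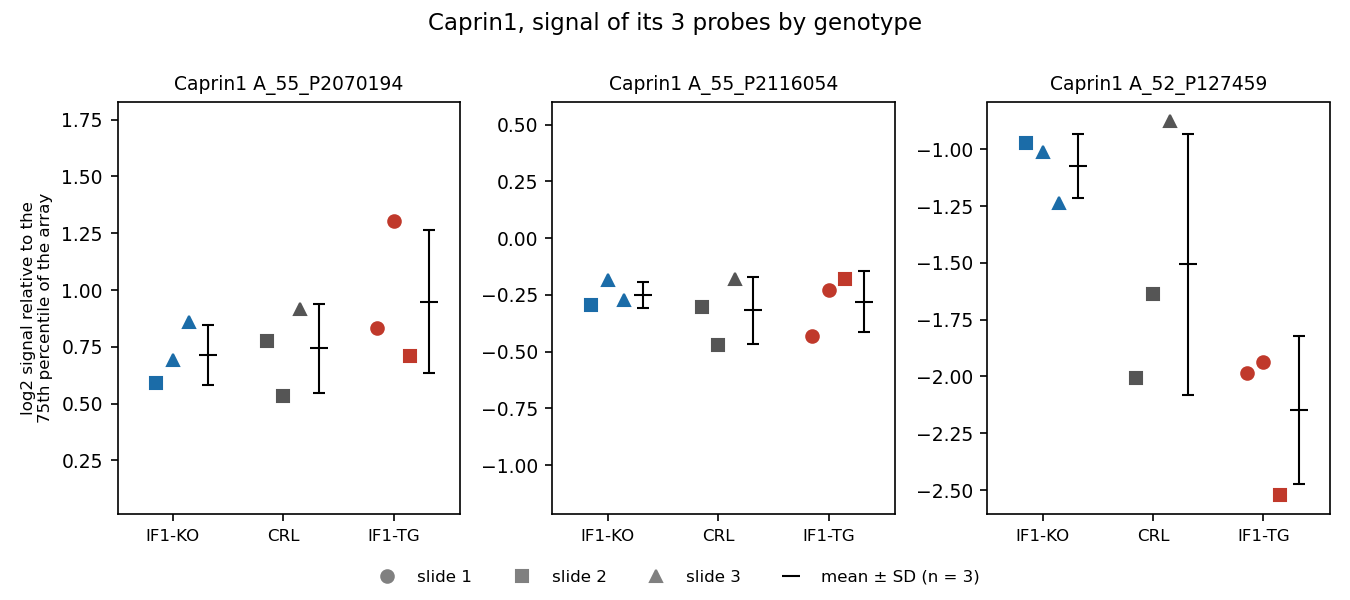
Log2 signal of the 3 *Caprin1* probes over the 75th percentile of each array, by genotype. Each point is 1 mouse, its shape gives the slide, and the bars give mean and SD of 3 mice; each panel spans the same number of log2 units. In the panel of A_52_P127459 the IF1-TG points, from -2.52 to -1.94, lie below all IF1-KO points, from -1.24 to -0.97, whereas the genotypes overlap in the other 2 panels.

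The deposited annotation gives these probes different transcripts. A_52_P127459 names the RefSeq transcripts NM_001111291 and NM_001111292 only, and the other 2 probes name NM_016739, NM_001111289 and NM_001111290. All lie on the minus strand of chromosome 2 (mm9): A_52_P127459 at chr2:103608278-103608337, A_55_P2070194 at chr2:103605819-103605878, which is 2459 bases further along the gene, and A_55_P2116054 at chr2:103603182-103603241, another 2637 bases on. That last distance is the same in the genome and in NM_016739, so both of these probes lie in 1 uninterrupted exon. The deposited annotation gives no exon or untranslated region for a probe. The last 30 of the 60 bases of each probe are shown, in the order in which they lie along the transcript, because the probes read different stretches of the gene; capitals mark AATAAA, the canonical polyadenylation signal.
*Caprin1* A_52_P127459: ctggaaatttatttttcaggtcttaaaacc
*Caprin1* A_55_P2070194: atggcaaaacaAATAAAaacatgtttctaa
*Caprin1* A_55_P2116054: ctcaacatttggaagctattgaaggtttta
The AATAAA of A_55_P2070194 is followed by 13 bases of the probe. Searched on the probe strand, these letters occurred in 3 of the 15 probes (this one, *Tial1* A_51_P441942 and *G3bp1* A_55_P1963309) and in 13.6% of the 27991 probes kept. On the other strand, TTTATT, they occurred in 1 of the 15, A_52_P127459, and in 4.05% of all.

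On slide 2, the only one with all genotypes, the sole IF1-KO array is that of replicate 1, whose *Atpif1* signal was not reduced. There the IF1-TG array was 1.55 below the array labelled IF1-KO and 0.70 below the mean of the 2 CRL arrays for A_52_P127459. IF1-KO exceeded CRL by 0.85 on slide 2, with 1 array against 2, and was 0.25 below it on slide 3, with 2 arrays against 1. With slide as a fixed block the difference between IF1-TG and IF1-KO was -1.19 ± 0.39. Leaving out replicate 1 of IF1-KO gave -1.03. Against CRL, the slide block gave -0.89 ± 0.36. Leaving out 1 array moved the difference between IF1-TG and CRL from -0.89, without CRL replicate 1, to -0.33, without CRL replicate 3, and it was -0.46 without IF1-TG replicate 3.

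*Tia1* encodes a translational silencer that nucleates stress granules. Its brighter probe, A_66_P116912, had a signal of -1.14, -1.01 and -1.16 in IF1-KO, -0.92, -1.30 and -1.24 in CRL, and -2.27, -1.38 and -1.30 in IF1-TG mice. The IF1-TG arrays lay below all the others, but 2 of them by a small margin, and replicate 1 alone was far down. The difference was -0.55 ± 0.25 from IF1-KO and -0.50 ± 0.25 from CRL. Without IF1-TG replicate 1 these values shrank to -0.24 and -0.19. Conversely, without IF1-TG replicate 2 or 3 the first grew to -0.69 and -0.72, and the second to -0.67 without replicate 3. The values moved closer to 0 with a block for slide, to -0.23 ± 0.39 and -0.16 ± 0.36.

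The dimmer *Tia1* probe, A_55_P2052370, had a signal of -2.95, -2.78 and -2.93 in IF1-KO, -2.30, -2.85 and -3.01 in CRL, and -3.81, -2.90 and -3.53 in IF1-TG mice. IF1-TG replicates 1 and 3 were the lowest arrays here, and replicate 2 lay among the other genotypes. The difference from CRL was -0.69 ± 0.26, and that from IF1-KO was -0.53 ± 0.26. The first was -0.48 without replicate 1 of CRL, -0.50 without replicate 1 of IF1-TG and -0.87 ± 0.41 with slide as a fixed block. The second was -0.78 without replicate 2 of IF1-TG and -0.33 without replicate 1. Within slide 2, IF1-TG minus CRL was -0.19 in the brighter and -0.96 in the dimmer probe, and IF1-TG minus the array labelled IF1-KO replicate 1, with its unreduced *Atpif1*, was -0.17 and -0.58.

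Both *Tia1* probes name the same 3 RefSeq transcripts, lie on the plus strand of chromosome 6 (mm9) at chr6:86383073-86383132 and chr6:86381136-86381195, and are 1937 bases apart in both genome and transcript, so they lie in 1 exon. Their last 30 bases are shown because this pair, unlike the probes of *Caprin1*, moved together, with a Pearson correlation of 0.83 over the 9 arrays.
*Tia1* A_55_P2052370: tctaaagagatctgcaatgtgataagtcct
*Tia1* A_66_P116912: gacttaataagggctatccatgctactgag
Agreement of this degree was not the rule on these arrays: across 6781 pairs of probes of 4581 genes with a RefSeq symbol, the median correlation was 0.20, with quartiles of -0.13 and 0.52, and 34.1% of pairs were below 0. The choroid plexus sum was highest, 179, on IF1-TG replicate 1, where both *Tia1* probes were lowest. The sum of 4 of the 6 inhibitory neuron markers, those with no spot left out as an outlier, was lowest on that array too, at 28.6 against 39.7 to 45.5 on the other 8, and the part of either in the result was not tested. In whole tissue, fewer cells of a type and less RNA per cell cannot be told apart.

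*Tial1*, the close relative of *Tia1*, had 2 probes that differed from each other. The brighter one, A_66_P127432, had a signal of 2.23, 2.10 and 2.20 in IF1-KO, 2.68, 2.10 and 2.22 in CRL, and 1.70, 2.26 and 2.44 in IF1-TG mice. Its lowest array was IF1-TG replicate 1, as in both *Tia1* probes, and its highest was CRL replicate 1. Over the 9 arrays it correlated at 0.77 with the brighter *Tia1* probe, the highest value among the 21 pairs of the 7 genes by their brightest probes. The difference between IF1-TG and IF1-KO was -0.05, with a 95% interval of -0.54 to 0.45, and turned to 0.17 without IF1-TG replicate 1. From CRL it was -0.20, from -0.70 to 0.30, and turned to 0.01 without that array. The dimmer probe, A_51_P441942, which lies 2671 bases further along the same exon, spanned 1.84 to 2.02 in IF1-KO, 1.90 to 2.02 in CRL and 2.01 to 2.06 in IF1-TG mice, the narrowest range over all 9 arrays among the 15 probes, at 0.22 log2 units. Its difference was 0.08 from IF1-KO, with an interval of -0.16 to 0.32, and 0.06 from CRL, from -0.18 to 0.30. The 2 probes correlated at 0.12.

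*Fmr1*, which encodes the translational repressor FMRP, had 3 probes on the plus strand of the X chromosome. A_55_P2018941, in the 3′ part of the transcript, had a signal of 0.04, 0.21 and 0.05 in IF1-KO, 0.33, -1.67 and 0.16 in CRL, and -0.72, -0.44 and -0.19 in IF1-TG mice. CRL replicate 2 was far below every other array, and apart from it the IF1-TG arrays were the lowest. The difference between IF1-TG and IF1-KO was -0.55 ± 0.46 (limma, adjusted *P* = 0.789), and that between IF1-TG and CRL was -0.06 ± 0.46. Without CRL replicate 2 the latter was -0.70 and passed the thresholds, with an adjusted *P* of 0.494, whereas it turned to 0.30 without CRL replicate 1, 0.22 without CRL replicate 3 and 0.36 ± 0.72 with slide as a fixed block. With that block, IF1-TG minus IF1-KO was 0.02 ± 0.78.

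The other *Fmr1* probes lie in the 5′ part of the transcript. A_52_P493091 had a signal of -2.87, -3.24 and -2.81 in IF1-KO, -2.80, -2.79 and -3.11 in CRL, and -2.62, -2.80 and -2.35 in IF1-TG mice. A_55_P2183110 had -3.12, -3.33 and -3.00, then -2.78, -2.90 and -3.38, then -3.23, -3.01 and -2.56. In the first, all IF1-TG arrays were above the IF1-KO arrays, by 0.38 ± 0.17 on average (adjusted *P* = 0.711), which fell to 0.25 when IF1-KO replicate 2 was left out and to 0.26 when replicate 3 of IF1-TG was. In the second they overlapped, with a difference of 0.22 ± 0.22 (adjusted *P* = 0.822). These probes lie 520 bases apart in the genome and correlated at 0.77, and their correlations with the 3′ probe, 22171 and 22691 bases away in the genome, were -0.34 and -0.17. None of these differences passed the thresholds. That of A_55_P2183110 shrank to 0.03 without IF1-TG replicate 3, and the sign at the 3′ probe turned with the slide block, as given above.

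**Figure D2:**
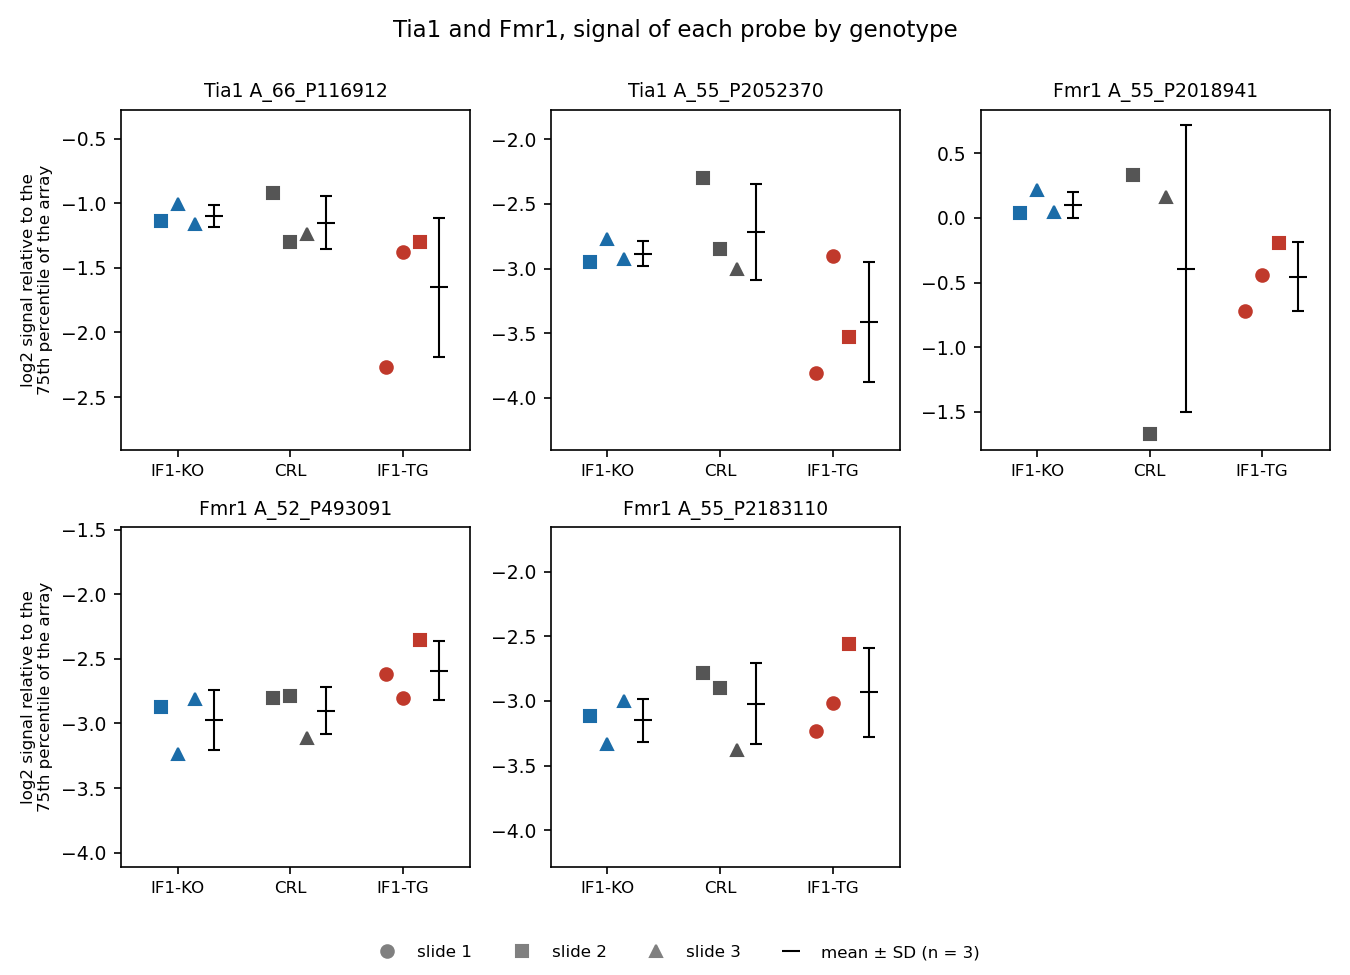
Log2 signal of the 2 *Tia1* and 3 *Fmr1* probes over the 75th percentile of each array, by genotype, with 1 point per mouse, its shape giving the slide, and bars for mean and SD of 3 mice; each panel spans the same number of log2 units. IF1-TG replicate 1 is lowest in both *Tia1* panels, at -2.27 and -3.81, and CRL replicate 2, at -1.67, stands apart in the panel of *Fmr1* A_55_P2018941.

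The genes of the granule core showed no difference beyond the spread between mice. *G3bp1* A_55_P1963309 ranged from -0.03 to 0.83 in IF1-KO, from 0.48 to 0.93 in CRL and from 0.36 to 0.90 in IF1-TG mice, with the array labelled IF1-KO replicate 1 at the bottom. Its difference between IF1-TG and IF1-KO was 0.08, with a 95% interval of -0.50 to 0.66, and turned to -0.20 without that array. Between IF1-KO and CRL it was -0.21, from -0.79 to 0.37, and turned to 0.06 without it. For A_52_P486702, the other *G3bp1* probe, the difference between IF1-TG and IF1-KO was -0.13, from -0.47 to 0.20. *G3bp2* gave 0.08, from -0.29 to 0.46, for A_52_P556281 and 0.03, from -0.43 to 0.50, for A_52_P636830. In that last probe the IF1-TG mice alone covered 1.15 to 2.02, the whole range of the 9 arrays.

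A_52_P486702 and A_52_P636830 read the corresponding stretch of the 2 relatives. Over the 49 bases in which they line up without a gap, 37 are identical, and the longest identical run is 8 bases; capitals mark the 12 bases that differ. The sequences are shown because 2 such similar genes could share signal on an array.
*G3bp1* A_52_P486702: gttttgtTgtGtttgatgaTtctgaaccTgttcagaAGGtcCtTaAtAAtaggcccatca
*G3bp2* A_52_P636830: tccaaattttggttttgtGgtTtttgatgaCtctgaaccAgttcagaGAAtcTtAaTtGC
The deposited annotation places this *G3bp1* probe at chr8:99951815-99951874 on the minus strand, although it names NM_013716 as its transcript, and the other *G3bp1* probe at chr11:55313951-55314010 on the plus strand (mm9). Whether its signal comes from *G3bp1* alone was not tested. The 2 *G3bp1* probes had a correlation of -0.07, and the 2 *G3bp2* probes of 0.13.

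*Pabpc1*, which encodes the main cytoplasmic poly(A)-binding protein, had 1 probe, A_66_P115406 at chr15:36526752-36526811. Its signal was 3.25 to 3.45 in IF1-KO, 3.40 to 3.66 in CRL and 3.39 to 3.57 in IF1-TG mice. The genotypes overlapped, with a difference between IF1-TG and IF1-KO of 0.13 and a 95% interval of -0.14 to 0.41, and between IF1-TG and CRL of -0.01, from -0.29 to 0.26. The probe shares 36 bases with a probe on chromosome 3 named for the transcript ENSMUST00000192231, and how much signal they share was not tested; that probe differed by 0.23 ± 0.13 and 0.04 ± 0.13 in the same comparisons. It correlated with the *Pabpc1* probe at 0.77 over the 9 arrays.

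**Figure D3:**
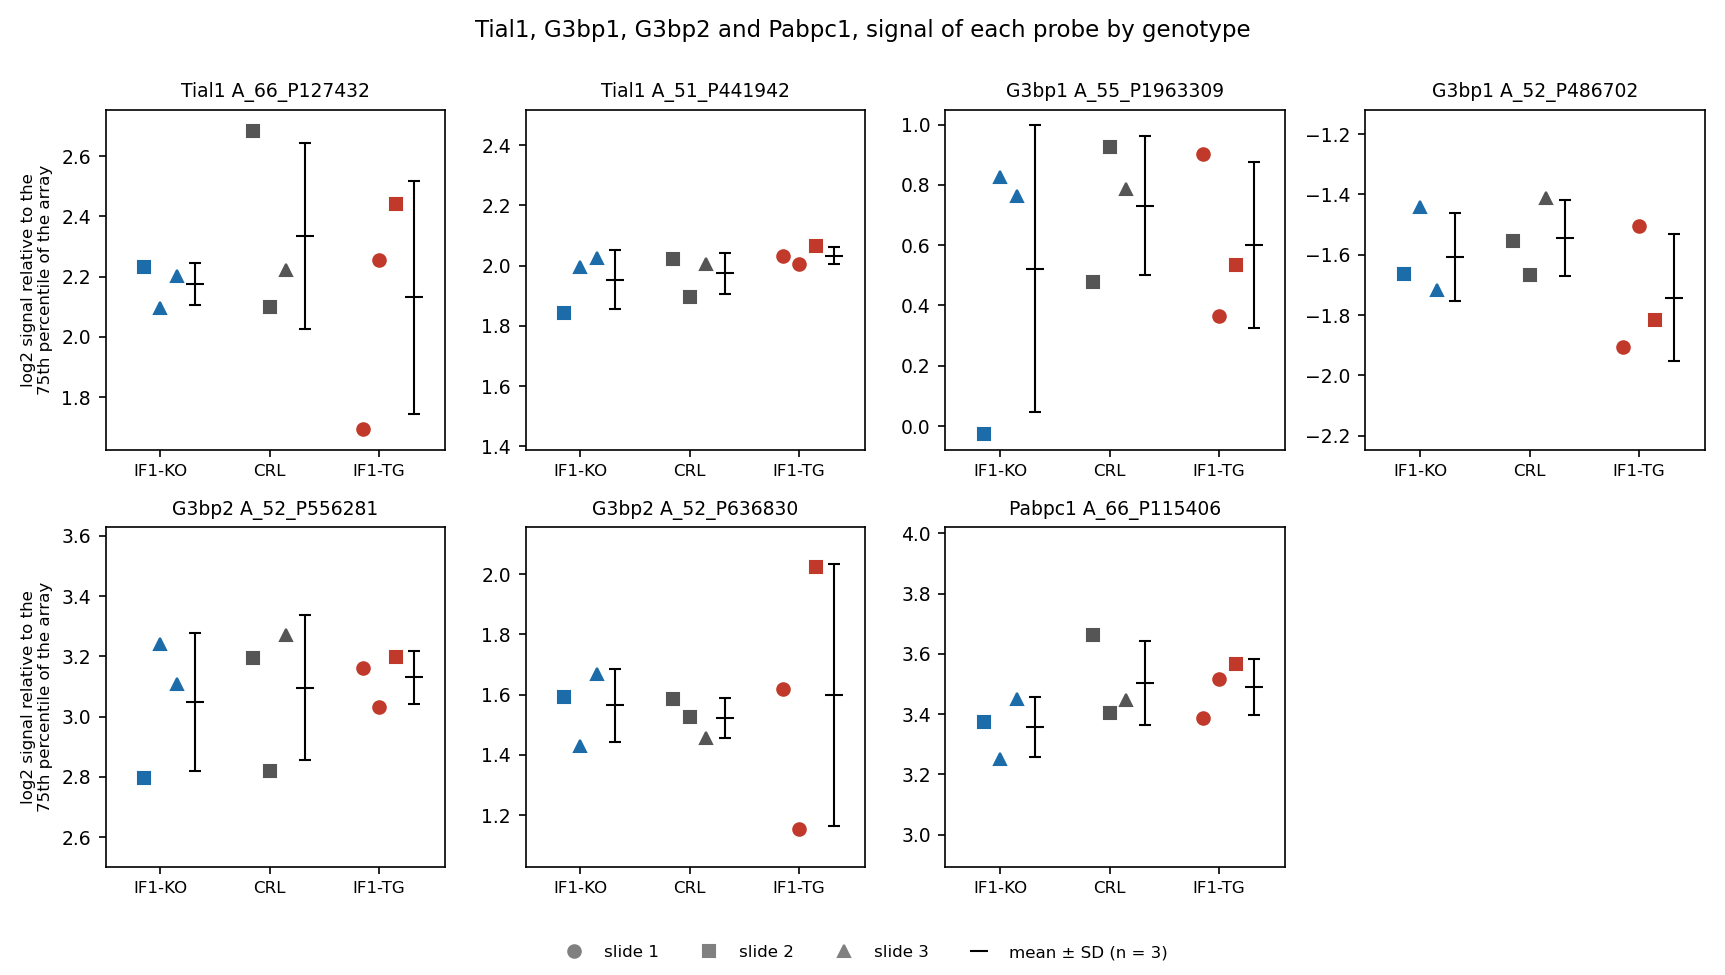
Log2 signal of the probes of *Tial1*, *G3bp1*, *G3bp2* and *Pabpc1* over the 75th percentile of each array, by genotype, with 1 point per mouse, its shape giving the slide, and bars for mean and SD of 3 mice; each panel spans the same number of log2 units. The genotypes overlap in every panel, and the points of *Tial1* A_51_P441942 lie closest together, from 1.84 to 2.06.

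The 10 probes of *Tial1*, *G3bp1*, *G3bp2*, *Fmr1* and *Pabpc1* gave no passing difference in any of the 3 comparisons, beside 3.77% of all probes tested between IF1-TG and IF1-KO, 4.47% between IF1-TG and CRL and 1.06% between IF1-KO and CRL. Their unadjusted *P* values were below the threshold in 0 cases in each, beside 7.12%, 8.52% and 2.57% of all probes, and the smallest adjusted *P* of limma was 0.711, 0.659 and 1 in the same order. At these shares less than 1 of 10 probes would be counted. Between IF1-TG and IF1-KO 7 of them were higher and 3 lower, from -0.55 to 0.38. Between IF1-KO and CRL 2 were higher and 8 lower, from -0.21 to 0.49; both ends turn sign without 1 array, the lower (*G3bp1* A_55_P1963309) to 0.06 without IF1-KO replicate 1 and the upper (*Fmr1* A_55_P2018941) to -0.14 without CRL replicate 2. The median log2 difference of the 10 was 0.08, 0.01 and -0.07, against 0.0070, 0.00067 and -0.0075 over all probes. Arrays did not overlap between IF1-TG and IF1-KO for 2 of the 10, *Fmr1* A_55_P2018941, lower in IF1-TG, and *Fmr1* A_52_P493091, higher, beside 13.6% of all probes, 5.21% lower and 8.36% higher. In the other comparisons they did not overlap for 0 of the 10, beside 12.2% and 8%. The comparisons share groups of mice, so these counts are not independent. With 3 mice per genotype, the 95% interval of a probe reached as far as 1.06 log2 units to either side.

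**Figure D4:**
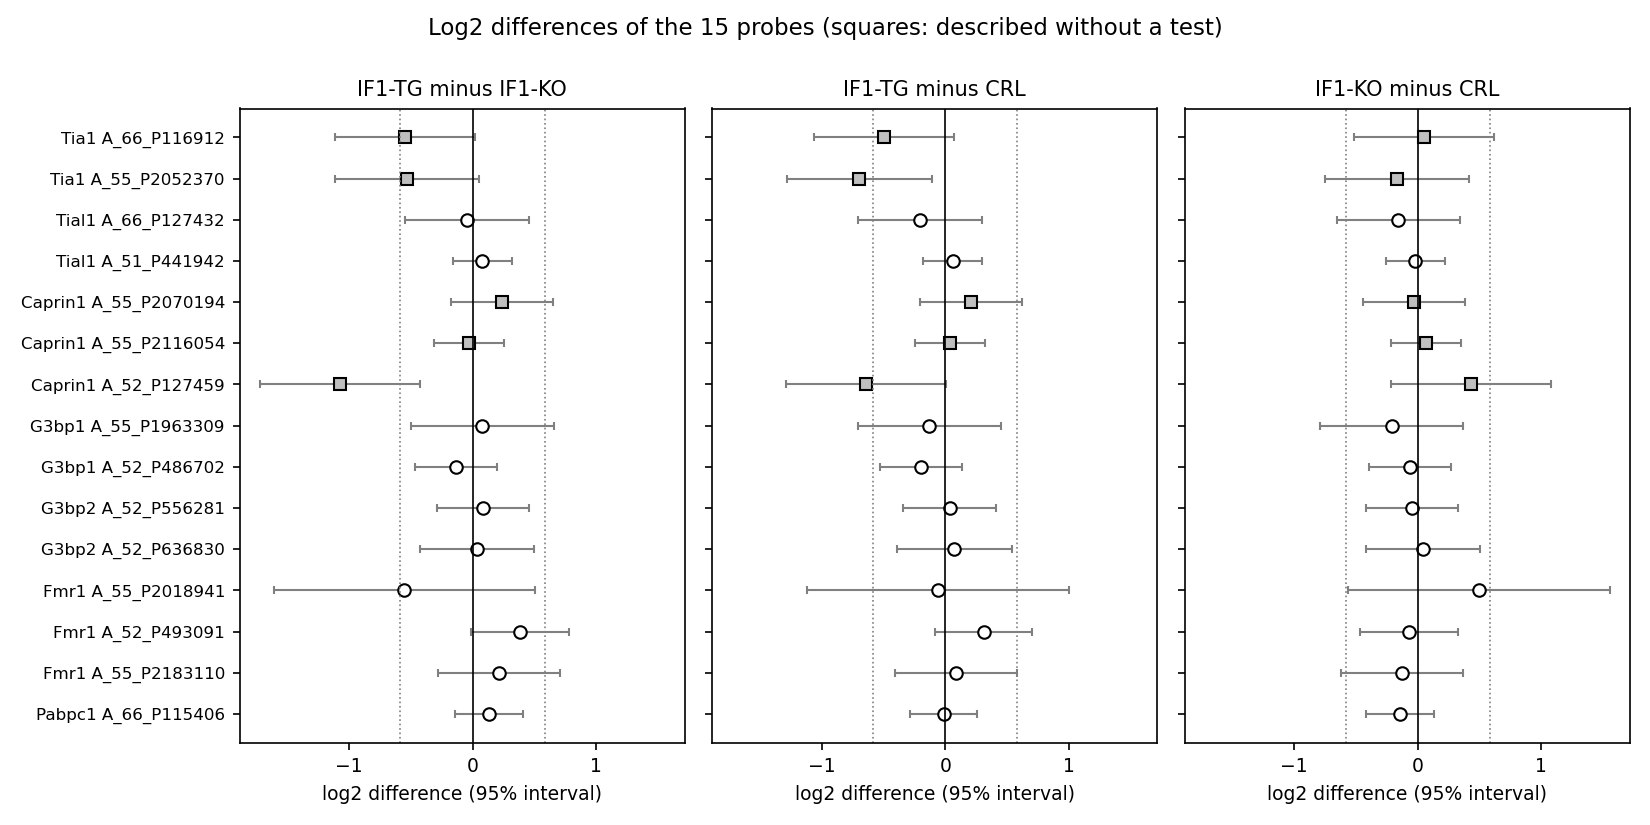
Log2 difference of each of the 15 probes in the 3 comparisons of genotypes, with 95% intervals from limma; dotted lines mark a fold change of 1.5. Grey squares are *Caprin1* and *Tia1*, described without a test, and circles are the 10 tested probes, none of which passed both thresholds. The square farthest from 0 is *Caprin1* A_52_P127459 between IF1-TG and IF1-KO, at -1.08, and the interval is widest for *Fmr1* A_55_P2018941.

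The genes nearest in pattern are given as a description, since the disagreement of the *Caprin1* probes was known. Among 21657 other genes, each by its brightest probe, the nearest to A_52_P127459 over the 9 arrays were 3110070M22Rik, 3110052M02Rik and ENSMUST00000195236, with Pearson correlations of 0.978, 0.949 and 0.945. For A_55_P2070194 they were ENSMUST00000174545 (0.943), B230344G16Rik (0.939) and *Trim29* (0.934), and for A_55_P2116054 2810416G20Rik (0.963), ENSMUST00000120745 (0.958) and 1500009C09Rik (0.954). The brighter *Tia1* probe was nearest to C030014L02 (0.984), *Hnrnpu* (0.975) and *Kctd6* (0.975), and 178 genes correlated with it above 0.9, against 15, 9 and 31 for the *Caprin1* probes in the order above. That *Tia1* probe had 1 array far from the rest, IF1-TG replicate 1 at -2.27, beside -1.38 to -0.92 on the others. The part of that array in these correlations was not tested. The points of these correlations share arrays, slides and the 75th percentile.

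Genes that work with these proteins were read by the brightest probe of each. Of 120 listed, 117 passed the filter on dim probes; *Igf2bp1*, *Igf2bp3* and *Zfp36* did not. From IF1-KO to IF1-TG mice 3 of 117 went past the thresholds, all lower in IF1-TG, which is 2.56% beside 3.68% of all genes and 2.06% lower. Among them was *Igf2bp2*, whose probe was well above background on no IF1-TG array. Between IF1-TG and CRL 5 passed, 3 higher and 2 lower, which is 4.27% beside 4.31%, with 2.07% higher and 2.24% lower. Between IF1-KO and CRL 1 passed, higher in IF1-KO, which is 0.855% beside 1.02%, with 0.593% higher. None had an adjusted *P* below the threshold, which 0.0107%, 0.00357% and 0% of all probes had, while 7, 5 and 1 had an unadjusted *P* below it, beside 6.86%, 8.12% and 2.57% of all genes; the smallest adjusted *P* was 0.66, 0.377 and 1.

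The list of the eIF2 alpha pathway, through which stress stops initiation, held 16 genes: kinases, subunits of eIF2 and eIF2B, phosphatase subunits and target genes. None passed the thresholds in any comparison, beside the 3.68%, 4.31% and 1.02% of all genes, which come to less than 1 gene of 16. Their log2 differences ran from -0.22 to 0.17 between IF1-TG and IF1-KO, from -0.27 to 0.09 between IF1-TG and CRL and from -0.28 to 0.16 between IF1-KO and CRL. No gene of the 16 had an unadjusted *P* below the threshold. Of 12 FMRP partners and transport granule genes by their brightest probe, none passed either, and the same shares come to less than 1 of these.

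Of 39 other stress granule genes, *Igf2bp2*, which encodes an mRNA-binding protein, passed between IF1-TG and IF1-KO by the brighter of its 2 probes. That probe was well above background on 2 IF1-KO, 3 CRL and 0 IF1-TG arrays, so it was kept through the CRL arrays alone. Its difference between IF1-TG and IF1-KO was -0.64 ± 0.27 (limma, adjusted *P* = 0.697) and ran from -0.87 to -0.07 over the other settings. With signals this near the background, the size of that difference is uncertain and nothing is read from its passing. The difference passed in 5 of 17 other settings, and the dimmer probe differed by 0.05 ± 0.29. *Atxn2*, the gene of ataxin 2, a partner of PABPC1, had a signal of 2.11, 2.13 and 2.30 in IF1-KO, 1.64, 1.79 and 2.18 in CRL, and 2.67, 2.44 and 2.52 in IF1-TG mice. All IF1-TG arrays were above all others, and the difference of 0.67 ± 0.16 from CRL passed the thresholds (adjusted *P* = 0.377), whereas that of 0.36 ± 0.16 from IF1-KO did not. The *Atxn2* difference from CRL was lost without CRL replicate 1 and with normexp and quantile normalization, at 0.56 in each.

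The other 56 probes kept, of 45 of these genes, were dimmer than the brightest. Of them 2 passed between IF1-TG and IF1-KO, or 3.57% beside 4.09% of all such probes, 2 between IF1-TG and CRL, or 3.57% beside 5.03%, and 0 between IF1-KO and CRL, beside 1.23%. They belong to *Elavl4*, *Stau2* and *Eif3c*. *Elavl4*, which encodes a neuronal protein that stabilizes messenger RNAs, had a dimmer probe that was higher in IF1-TG mice by 0.63 ± 0.17 than in IF1-KO and by 0.59 ± 0.17 than in CRL (adjusted *P* = 0.660 and 0.460), with no overlap of arrays, and a brighter probe at 0.32 ± 0.18 and 0.18 ± 0.18. *Stau2*, which encodes a protein of dendritic RNA transport, had a dimmer probe 0.73 ± 0.24 above CRL in IF1-TG mice (adjusted *P* = 0.511) and a brighter one at 0.04 ± 0.36. *Elavl4* no longer passed without IF1-TG replicate 3 (0.50 and 0.47), nor against CRL without CRL replicate 3 (0.44), and *Stau2* was lost without CRL replicate 1 (0.58) or 2 (0.59).

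Among 29 translation initiation genes, *Eif3e*, a subunit of the factor that joins the small ribosomal subunit to messenger RNA, passed in both comparisons with IF1-TG mice. Its signal was 2.08, 1.98 and 2.01 in IF1-KO, 1.69, 2.18 and 2.27 in CRL, and 1.55, 0.81 and 1.52 in IF1-TG mice. The IF1-TG arrays were below all the others, by 0.73 ± 0.23 on average from IF1-KO (adjusted *P* = 0.660) and 0.75 ± 0.23 from CRL (adjusted *P* = 0.487). Both were lost without IF1-TG replicate 2, at -0.48 and -0.51, and with slide as a fixed block. *Eif3c*, another subunit of that factor, passed only by its dimmer probe, which was 0.65 ± 0.23 higher in IF1-TG than in IF1-KO (adjusted *P* = 0.660), beside 0.00 ± 0.23 for its brighter probe. It was lost when replicate 2 of either genotype was left out, at 0.41 for IF1-KO and 0.56 for IF1-TG, with slide as a fixed block, at 0.40, and with normexp and quantile normalization, at 0.48.

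Processing bodies, in which messenger RNAs are stored or decapped, were read by 25 genes. *Lsm2*, of the ring that binds deadenylated ends, was lower in IF1-TG mice by -0.60 ± 0.25 from IF1-KO (adjusted *P* = 0.697) and -0.80 ± 0.25 from CRL (adjusted *P* = 0.506), with arrays apart from CRL but not from IF1-KO. Without IF1-TG replicate 2 these were -0.38 and -0.58 and did not pass, nor did either with slide as a fixed block (-0.51 and -0.76), and the first was lost in 12 of 18 settings in all. *Cnot8*, a deadenylase of the CCR4-NOT complex, had a signal of 1.97, 1.68 and 1.70 in IF1-KO, 0.61, 0.30 and 1.74 in CRL, and 1.94, 1.73 and 1.92 in IF1-TG mice. It exceeded CRL by 0.98 ± 0.32 in IF1-TG (adjusted *P* = 0.507) and 0.90 ± 0.32 in IF1-KO mice (adjusted *P* = 1), and *Cnot2*, the gene of another subunit, by 0.62 ± 0.25 in IF1-TG mice (adjusted *P* = 0.568). In both genes CRL replicates 1 and 2, on slide 2, were low and CRL replicate 3, on slide 3, lay with the other genotypes. For *Cnot8*, IF1-KO minus CRL was 1.51 on slide 2, where the IF1-KO array is replicate 1 with its unreduced *Atpif1*, and -0.05 on slide 3. Its differences no longer passed without CRL replicate 1 (0.84 and 0.76) or 2 (0.69 and 0.61), nor did the second without IF1-KO replicate 1 (0.80) or with slide as a fixed block (0.73). That of *Cnot2* was lost in 9 of 18 settings, at 0.49 and 0.43 without CRL replicate 1 or 2, 0.52 without IF1-TG replicate 1 and 0.74 ± 0.35 with slide as a fixed block. It rose to 0.95 without CRL replicate 3. The *Cnot2* difference between IF1-KO and CRL, 0.57, passed only without that array (0.90) and with quantile normalization, with or without normexp.

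**Figure D5:**
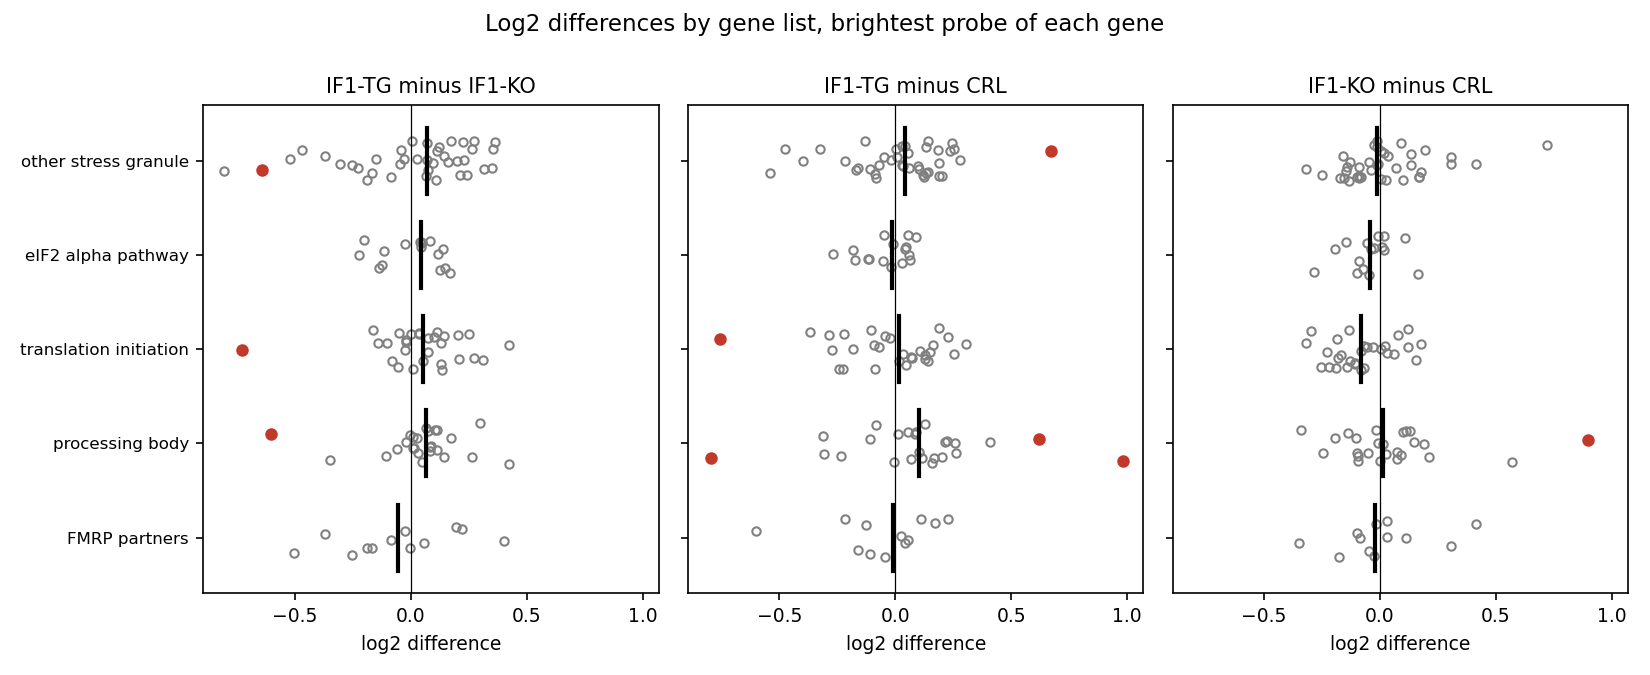
Log2 differences of the 117 other genes, each by its brightest probe, in 5 lists and 3 comparisons; a gene in more than 1 list is drawn in each. Filled points passed both thresholds and black bars are medians. The medians lie between -0.08 and 0.10, and no gene of the eIF2 alpha pathway or of the FMRP partners is filled.

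The paralogs read here, *Caprin2*, *Fxr1*, *Fxr2* and *Pabpc4*, did not pass in any comparison. Between IF1-TG and IF1-KO, *Caprin2* differed by 0.23 ± 0.17 and 0.04 ± 0.11 in its brighter and dimmer probe, *Fxr1* by -0.25 ± 0.18 and 0.17 ± 0.14, *Fxr2* by -0.17 ± 0.22 and *Pabpc4* by 0.04 ± 0.15. The smallest adjusted *P* among these 6 values was 0.764. The *Fxr2* spot was an outlier on CRL replicate 1 and was left out there, and its lowest array was IF1-TG replicate 1, at 2.13. Without IF1-TG replicate 1 the *Fxr2* difference turned to 0.09, and that of the brighter *Caprin2* probe fell to 0.07.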

How the data were processed

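Hippocampal RNA of 9 mice was hybridized to 9 Agilent arrays. The authors deposited the processed spot intensity of Feature Extraction 10.7.3.1, background-subtracted within each array and not normalized between arrays, with the mean spot and local background intensity and marks of each spot; probe positions are on mm9. Genotypes come from the labels, and the slide of each array from the deposited headers. Processed intensity was taken to log2 minus the 75th percentile of the array, spots marked as outliers were dropped, and repeated spots averaged. To be kept, a probe had to be well above background on every array of 1 genotype or more (27991 of 39429). No spot was saturated. All 9 arrays entered 1 limma 3.58.1 model (R 4.3.3, eBayes) with genotype. A probe passed at a fold change of 1.5 and an unadjusted *P* below 0.05. *P* values rest on the spread between arrays of a genotype, moderated over all probes, in which mouse, array and slide cannot be told apart. The number of arrays limits the precision. Simulated log2 values with known changes served to test the limma fit and the thresholds, but not the steps before or after them.

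The 7 genes, the lists of related genes and the tests were chosen with earlier results of these arrays known. The genes named outside the 7 are those of a list with a probe past the thresholds, the paralogs *Caprin2*, *Fxr1*, *Fxr2* and *Pabpc4*, and the 3 genes nearest to the brighter *Tia1* probe and to each *Caprin1* probe. Correlations are over 9 arrays, without tests. The alternatives were normexp (offset 50) with quantile normalization, quantile normalization, other filters on dim probes, a block for slide (fixed or random) or for replicate number, separate fits for each pair of genotypes, trended and robust eBayes, and leaving out each array.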

Additional observations from a re-analysis of the deposited data

How the results depend on the processing

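Of 540 values of the 30 log2 differences of the 10 tested probes under 18 alternatives, 539 kept their side of the thresholds and 1 passed only under the alternative, *Fmr1* A_55_P2018941 between IF1-TG and CRL without CRL replicate 2. The sign turned in 42 of the 540, 27 of them with 1 array left out, and none of these passed in either setting. The lowest adjusted *P* of any was 0.428. *Caprin1* A_52_P127459, a description without a test, ranged from -0.89 to -1.19 between IF1-TG and IF1-KO. Over all 15 probes, *Caprin1* and *Tia1* included, 1, 1 and 0 lay past the thresholds in the 3 comparisons. These were *Caprin1* A_52_P127459 between IF1-TG and IF1-KO and *Tia1* A_55_P2052370 between IF1-TG and CRL. The values of both genes were known beforehand, so neither is a call, and nothing is read from these counts or from how they move. That between IF1-TG and CRL was 0 with normexp and quantile normalization and in the fit of 2 genotypes, and 2 with quantile normalization, with the filter on all 9 arrays, with slide as a random block and with trend and robust options. With 1 array left out it was 0 to 2, with 0 without IF1-TG replicate 1 and 2 without CRL replicate 2. Between IF1-TG and IF1-KO that count was 1 to 3 with 1 array left out, with 3 when replicate 2 of IF1-TG was left out and 2 when replicate 3 was, and between IF1-KO and CRL it was 0 to 1, the 1 without CRL replicate 3. Of the 117 related genes, the count between IF1-TG and IF1-KO, 3 in the report, was 1 without a filter on dim probes and with slide as a fixed or random block, and 1 to 4 with 1 array left out. Between IF1-TG and CRL, 5 became 2 to 6 with 1 array left out, the lowest 2 without CRL replicate 1. Between IF1-KO and CRL, 1 became 2 with normexp and quantile normalization and with quantile normalization alone, 0 with slide as a fixed block, and 0 to 3 with 1 array left out, the 3 without CRL replicate 3. For the 45 log2 differences of the related genes named, 746 of 807 values kept their side, 56 no longer passed and 5 passed only then, with a lowest adjusted *P* of 0.0723; *Igf2bp2* and *Lsm2* between IF1-TG and IF1-KO were each lost in 12 settings. These counts stand beside shares of all probes that moved too. From 3.77%, 4.47% and 1.06% they went to 2.01%, 2.03% and 0.582% under normexp with quantile normalization (562, 568 and 163 probes in place of 1056, 1250 and 298), 8.08%, 11.8% and 1.86% without a filter (3187, 4670 and 734 probes), 3.73%, 4.22% and 1.09% with quantile normalization, 5.14%, 8.02% and 0.854% with slide as a fixed block and 3.35%, 4.43% and 1.01% as a random one. Between IF1-TG and CRL the share was 3.63% with the filter on all 9 arrays, 3.71% in the fit of 2 genotypes and 4.31% with trend and robust options. With 1 array left out the shares were 2.25% to 6.32%, 3.73% to 7.05% and 0.713% to 3.97%. Between IF1-TG and IF1-KO 6.32% passed without replicate 2 and 5.82% without replicate 3 of IF1-TG. Between IF1-KO and CRL 3.97% passed without CRL replicate 3. The cause of these changes was not tested. The replicate numbers do not pair the mice: deviations of arrays with the same number correlated at -0.17 to 0.12, and no array correlated best with its own number. With the replicate block 1, 1 and 0 of the 15 probes lay past the thresholds, beside 1066, 1180 and 333 of all probes. Nothing is read from these counts of the 15 either.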
